A study of Mus musculus with 26 samples.

Results

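The clustered protocadherins are cell adhesion proteins encoded by 3 neighbouring gene clusters, and open chromatin over these genes was examined in mouse pluripotent cells. Members were all protein-coding genes on chromosome 18 whose symbols begin with Pcdha, Pcdhb or Pcdhg, which gave 57 of the 21900 protein-coding genes of the RefSeq table for GRCm38.p6. They fell into an alpha cluster of 14 genes, a beta cluster of 22 and a gamma cluster of 21. A further symbol of this kind, Pcdhgb8, is listed as a pseudogene and was left out. Members were kept apart by their role in 5 kinds: 12 alternate alpha genes, 22 beta genes, 12 gamma A genes, 6 gamma B genes and the 5 C-type genes Pcdhac1, Pcdhac2, Pcdhgc3, Pcdhgc4 and Pcdhgc5.

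In the alpha and gamma clusters each member is a separate first exon with a promoter of its own, spliced to a set of constant exons that the whole cluster shares, whereas each beta gene is a single exon. Neurons choose a few of the alternate promoters at random in each cell, which gives each neuron a surface identity used in self-recognition of its branches, while the C-type promoters are used more uniformly. Promoter choice is known to involve CTCF and cohesin, distant enhancers in and downstream of the alpha cluster and downstream of the gamma cluster, and silencing by DNA methylation and SMCHD1.

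Chromatin was profiled by ATAC-seq, an assay that marks accessible DNA by letting the Tn5 transposase cut and tag it, and each of 26 libraries yielded 1 list of peaks. In the first set, 6 groups had 3 libraries each. ES denotes embryonic stem cells, which stand for the naive state, in 2iL medium at passage 16. Formative stem (FS) cells, a state placed between naive and primed, were kept in A3XR medium as FS1 at passage 21 and FS2 at passage 29. Epiblast stem cells (EpiSCs), which stand for the primed state, were EpiSC_AF in AF medium at passage 22, and EpiSC_AFX1 at passage 14 and EpiSC_AFX2 at passage 16 in AFX medium. A second set carried the label Rd2: Rd2_ES had 2 libraries in 2iL at passage 33, Rd2_AFX had 2 libraries of EpiSCs in AFX at passage 16, and Rd2_EpiLC had 4 libraries of epiblast-like cells, induced from ES cells for 2 days in AF with KSR and then sorted for low GFP. The titles of the Rd2 libraries carry the label WT, and the labels of the first set name no genotype. Between ES, FS and EpiSC_AFX, cell type and medium changed together and cannot be told apart. ES and EpiSC_AF each have a single source label in the first set, and the labels do not say whether the libraries of a group came from separate cultures, so p-values measure only the spread between these libraries.

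The lists differed in length from 471 peaks in Rd2_ES replicate 1 to 31263 in FS1 replicate 3, and within the first set the ES lists, with 8044 to 10961 peaks, were shorter than every FS and EpiSC list. Read depth is unknown, since the lists hold no counts. Values are therefore given for the lists as deposited and, in the first set, at equal list length, meaning the 8044 peaks of each list with the highest −log10 p. Marker genes were counted when a peak lay within 1 kb of either end. Of 10 naive genes, ES libraries had a mean of 5.33 in the lists as deposited, against 6 in FS1 and 3.33 in FS2. The mean was 6.33 in EpiSC_AF and EpiSC_AFX1 and 6 in EpiSC_AFX2, so the naive count did not set ES apart there. At equal list length ES had the highest mean, 5.33, against 3.33 in FS1 and EpiSC_AF, 2.33 in FS2 and 4.33 in both EpiSC_AFX groups. In the lists as deposited, the naive gene Zfp42 was open in all 3 ES libraries but in no FS or EpiSC_AFX library. Tfcp2l1 went the other way, open in no ES library, 5 of 6 FS and 6 of 6 EpiSC_AFX libraries. Nr5a2 and Dppa3 had no peak in any list. Of 7 formative and primed genes, ES had a mean of 1, FS1 6.33, FS2 3, EpiSC_AF 5.67 and both EpiSC_AFX groups 6. In the lists as deposited, markers of other cells were also more often open outside ES. Of 8 neural genes the mean was 1.33 in ES, 5.67 in FS1, 3.33 in FS2 and 5.33 to 5.67 in the EpiSC groups. Of 4 feeder or fibroblast genes it was 0 in ES, 3.33 in FS1, 1.33 in FS2 and 2.33 to 3.67 in the EpiSC groups. Of 4 extraembryonic endoderm genes it was 0 in ES, 1.33 in FS1, 0.333 in FS2 and 1.33 to 1.67 in the EpiSC groups. The neuronal gene Dcx and the endoderm gene Gata4 had no peak in any list. Over all genes counted in the same way, the median share with a peak was 23.8% in ES, 51.9% in FS1 and 35.9% in FS2. It was 48.9% to 52.2% in the EpiSC groups. At equal list length the neural mean was 1 in ES and 2 to 3 in the other groups. The formative and primed mean was 0.667 in ES and 1 to 4.33 elsewhere. The feeder or fibroblast mean was 0 in ES and 0 to 1 elsewhere, and the endoderm mean was 0 in every group. No share over all genes is given beside these equal-length means. The marker counts of the lists as deposited, like the protocadherin values, were low in the short lists of ES and FS2, and their part in the results was not tested.

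The alpha genes extend over chr18:36930285-37188897, the beta genes over chr18:37264998-37521419 and the gamma genes over chr18:37661775-37841873 (GRCm38). A stretch of 76.1 kb separates alpha from beta, and 140.355 kb separate beta from gamma. Each cluster was examined with 50 kb on either side, a span called its window. The 3 windows and what lies between them are called the locus, 1011.59 kb in all. Merging the peaks of all 26 lists gave 47 regions in the locus, of which 25 were seen in a single list. The gamma cluster held 20 of the 47 regions, the alpha cluster 5 and the beta cluster 7. Of the 7 beta regions, 6 were seen in a single list.

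**Figure D1:**
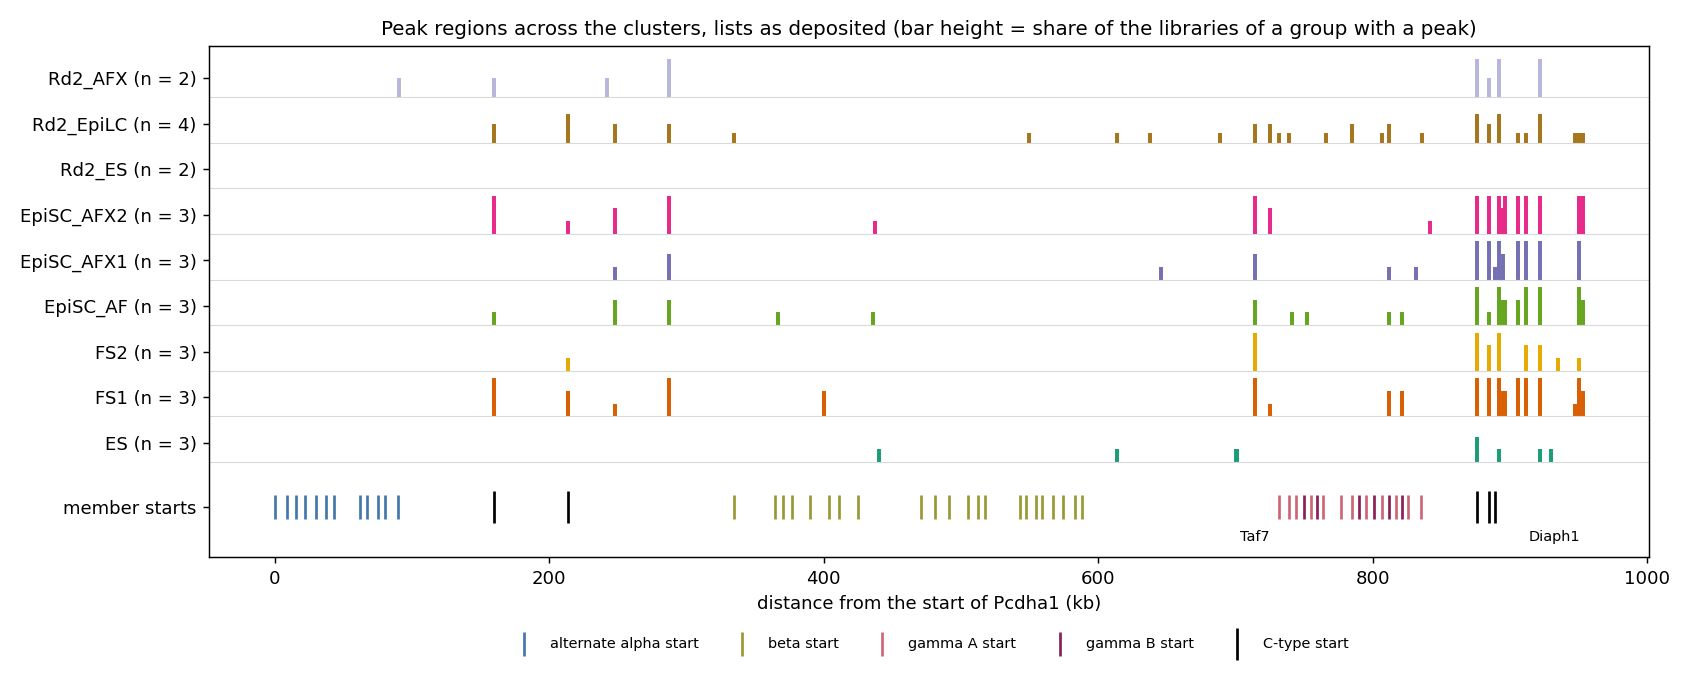
Merged peak regions along the locus, by distance in kb from the Pcdha1 start (horizontal axis), with 1 row per group in which bar height is the share of the group's libraries with a peak in the lists as deposited, and the members' starts marked in the lowest row by kind. Bars of FS and EpiSC rows crowd at the 3′ end of the gamma cluster, where the Pcdhgc3 start had a peak in 22 lists, and are rare over the beta starts, where 6 of 7 regions came from a single list.

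The first question was which of the members had open chromatin at their promoters. A start was counted when a peak lay within 1 kb of it. Over the lists as deposited, 14 of the 57 members had such a peak in at least 1 list and 43 had none in any. All 5 C-type members were among the 14, and only 9 of the remaining 52. In lists cut to equal length the count was 3 of 57, and these 3 (Pcdhgc3, Pcdhgc4 and Pcdhac1) were all C-type.

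Pcdhgc3, the first C-type gene of the gamma cluster, had the most widely open start, with a peak in 22 of 26 lists. Its start is at chr18 position 37806410. The lists without it were ES replicate 2, both Rd2_ES lists and Rd2_EpiLC replicate 2.1, so that 17 of the 18 lists of the first set held it. The gene was found in all 6 FS and all 6 EpiSC_AFX libraries and in 2 of 3 ES libraries (exact Fisher test, unadjusted p = 0.333 for either comparison with ES). Cutting the lists to equal length kept it in 11 of 18 lists: in 1 of 3 ES, 2 of 3 FS1, 2 of 3 FS2, 1 of 3 EpiSC_AF, 3 of 3 EpiSC_AFX1 and 2 of 3 EpiSC_AFX2 libraries. Presence at this start therefore did not separate any of the cell types, and the exact Fisher test gave an unadjusted p of 0.524 for ES against FS and 0.226 for ES against EpiSC_AFX at equal length. Within the lists that held it, its peak stood at a median percentile of 68.1 by −log10 p, with a range from 14.5 to 94.4, a higher percentile being a stronger peak of its list. In these bulk lists, an open start in fewer cells and a less open start in every cell cannot be told apart.

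Pcdhgc4, whose protein needs other members to reach the cell surface, had a start peak in 15 lists. Its start is at position 37815079. The peak was present in 3 of 3 FS1, 2 of 3 FS2, 1 of 3 EpiSC_AF, 3 of 3 EpiSC_AFX1, 3 of 3 EpiSC_AFX2 and 0 of 3 ES libraries. In the Rd2 set it was present in 2 of 4 Rd2_EpiLC, 1 of 2 Rd2_AFX and 0 of 2 Rd2_ES libraries. Pcdhgc4 was the only member that split a pair of cell types completely, with 6 of 6 EpiSC_AFX against 0 of 3 ES libraries. In the lists as deposited, 15.4% of the 13328 protein-coding starts tested were likewise open in all EpiSC_AFX and no ES libraries, beside 1 of the 6 members with a peak in these libraries, so the single member does not stand out. The exact Fisher test with Benjamini-Hochberg adjustment over all those starts gave p = 0.0119 and an adjusted p of 0.0766. Against FS, with 5 of 6 libraries, the same exact test gave p = 0.0476 and an adjusted p of 0.39. The peak remained in 5 lists of equal length (FS2 replicates 1 and 2, EpiSC_AFX1 replicates 1 and 2, and EpiSC_AFX2 replicate 3), and the exact Fisher p was 0.5 against FS and 0.464 against EpiSC_AFX.

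Pcdhgc5, the last gene of the gamma cluster, had a start peak in 1 list only, EpiSC_AFX1 replicate 3. The 3 gamma C-type genes thus differed from one another, with 22, 15 and 1 lists, although their starts lie next to each other.

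In the alpha cluster, Pcdhac1 had a start peak in 10 lists. All 3 FS1 and all 3 EpiSC_AFX2 libraries held it, with EpiSC_AF replicate 3, Rd2_EpiLC replicates 1.2 and 2.2 and Rd2_AFX replicate 1. None of the FS2, EpiSC_AFX1 or ES libraries did. At this start the groups of 1 cell type therefore differed, FS1 from FS2 and EpiSC_AFX1 from EpiSC_AFX2, which was not tested. The FS2 lists were shorter, 11796 to 14147 peaks against 23883 to 31263 in FS1. Of all other starts, a mean of 35.9% were open in FS2 and 53.6% in FS1, and 51.1% in EpiSC_AFX1 and 54.0% in EpiSC_AFX2. The share of all starts with such a split was not computed, so it cannot be called particular to Pcdhac1. Pcdhac2 had a start peak in 7 lists: FS1 replicates 1 and 3, FS2 replicate 1, EpiSC_AFX2 replicate 1 and Rd2_EpiLC replicates 1.1, 1.2 and 2.2. Neither alpha C-type start had a peak in any ES list. Pcdhac1 remained at equal list length in EpiSC_AF replicate 3 alone, and Pcdhac2 in no list.

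The alternate promoters, which neurons choose among at random, were almost all without a peak. Of the 12 alternate alpha genes, 1 had a start peak in any list, Pcdha12 in Rd2_AFX replicate 1. Of the 22 beta genes, Pcdhb1 alone had one, in Rd2_EpiLC replicate 2.2. Of the 18 alternate gamma genes, 7 had one. Pcdhgb6 was found in 6 lists: FS1 replicates 2 and 3, EpiSC_AF replicate 2, EpiSC_AFX1 replicate 1 and Rd2_EpiLC replicates 1.1 and 1.2. Pcdhgb7 was found in 3, namely FS1 replicates 1 and 2 and EpiSC_AF replicate 2. These gamma B genes were the only alternate members seen in any list of the first set. Pcdhga7 was found in Rd2_EpiLC replicates 1.1 and 2.2, Pcdhga1, Pcdhga9 and Pcdhga12 in replicate 1.2, and Pcdhga2 in replicate 2.2. Of the 9 alternate members with a peak, 7 were seen in an Rd2_EpiLC list and 6 of them in no other group. The share of all starts seen in Rd2_EpiLC lists alone was not computed. The Rd2 lists also hold shorter peaks than the first set. The Pcdhga9 and Pcdhga12 peaks were 110 and 117 bp wide, whereas no first-set peak was shorter than 150 bp. The peaks of Pcdhb1, Pcdhga1, Pcdhga2 and Pcdhga7, from 176 to 530 bp, were above that width. No alternate start had a peak in an ES, FS2 or EpiSC_AFX2 list, nor in any list cut to equal length.

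The C-type share of starts was set beside all other protein-coding starts on the same lists. In the first set, 1, 0 and 1 of the 5 C-type starts were open in the ES libraries, 4, 3 and 4 in FS1, 3, 2 and 1 in FS2, 2, 1 and 2 in EpiSC_AF, 2, 2 and 3 in EpiSC_AFX1, and 4, 3 and 3 in EpiSC_AFX2. Every FS1, EpiSC_AFX1 and EpiSC_AFX2 library lay above every ES library in this count, whereas FS2 and EpiSC_AF each had a library level with an ES library. Of all other starts, 22.3% to 27.0% were open in the ES libraries and 32.8% to 55.8% in the FS and EpiSC libraries of the first set. An order with ES lowest is therefore not particular to the C-type starts. As a mean over libraries, C-type members were at 73.3% in FS1, where all other starts were at 53.6%, at 66.7% against 54.0% in EpiSC_AFX2 and at 40% against 35.9% in FS2. In the remaining groups the C-type share was the lower one, at 46.7% against 51.1% in EpiSC_AFX1, at 13.3% against 24.6% in ES and, with 1.67 of 5 starts, against 48.3% in EpiSC_AF. Alternate members did not exceed 2.56% in any group of the first set. At equal list length the mean number of open C-type starts was 0.333 of 5 in ES, 0.667 in FS1 and EpiSC_AF, 1 in EpiSC_AFX2, 1.33 in FS2 and 1.67 in EpiSC_AFX1, and all other starts lay between 21.3% and 26.8%. In Rd2_EpiLC the 4 libraries had 2, 4, 0 and 4 C-type starts and 2, 4, 0 and 3 alternate starts, and replicate 2.1, which had none of either, was also the shortest list of that group with 7469 peaks.

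**Figure D2:**
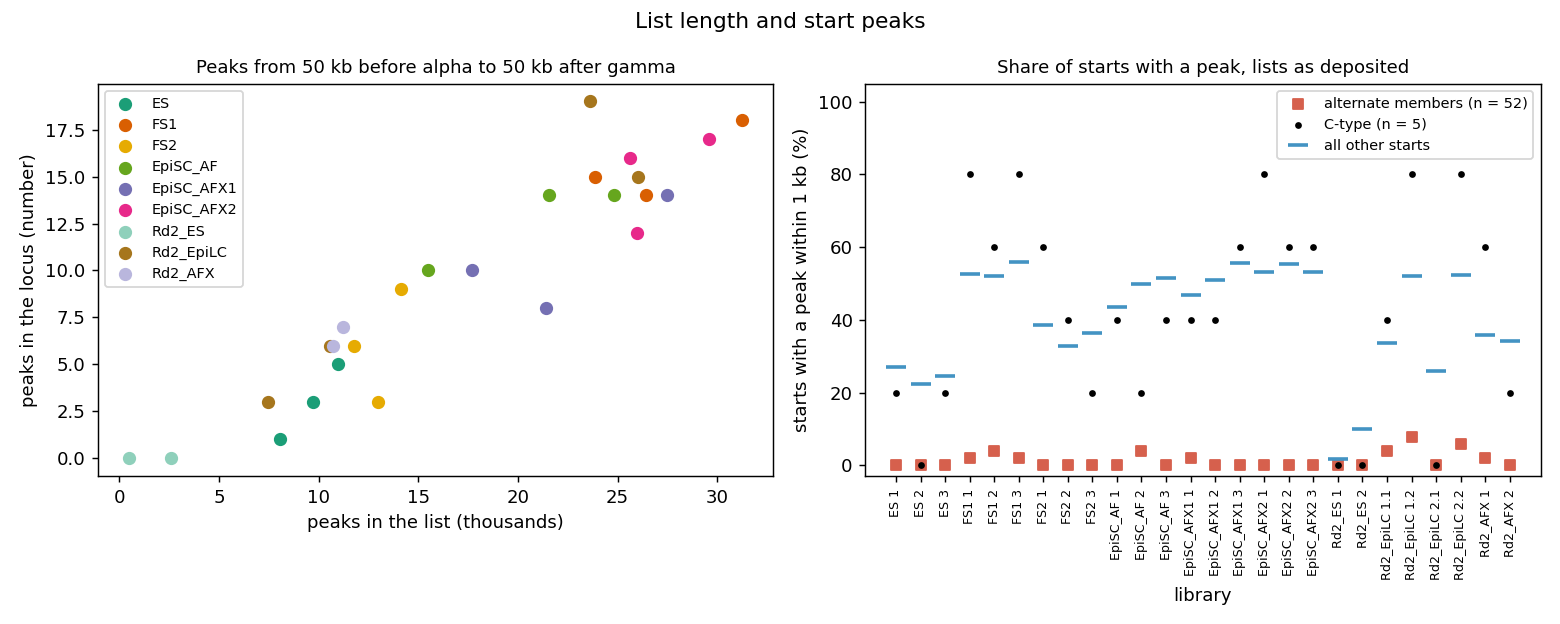
Left, number of peaks in the locus against the length of the list in peaks, 1 point per library; right, the percent of C-type starts (n = 5), alternate starts (n = 52) and all other starts with a peak within 1 kb in each library of the lists as deposited. Short lists held few locus peaks, 0 in both Rd2_ES lists and 1 to 5 in ES against 14 to 18 in FS1. The alternate members were highest in Rd2_EpiLC replicates 1.2 and 2.2, at 7.69% and 5.77%, and lower in the other libraries.

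The start test covered the member starts and the protein-coding starts outside chromosome 18, as far as they had a peak in the libraries compared. That left 2 members to test at equal list length and 6 or 7 in the lists as deposited, the rest of the 57 being without a peak. None passed an adjusted p of 0.05 in any comparison (exact Fisher test with Benjamini-Hochberg adjustment), and 0% of all starts tested did. At an unadjusted p under 0.05, 0 of the 2 members passed at equal list length in any of the 3 comparisons, too few to read against 5.86% of starts for ES and FS, 7.09% for ES and EpiSC_AFX and 0.34% for FS and EpiSC_AFX. In the lists as deposited, 1 of 6 members passed for ES and FS (12.2% of starts) and 1 of 6 for ES and EpiSC_AFX (23.2% of starts), Pcdhgc4 both times, and 0 of 7 for FS and EpiSC_AFX (0.463% of starts). Comparisons with ES share the same 3 ES libraries, and those with EpiSC_AFX or FS share those libraries in turn. At equal length no member was open in every EpiSC_AFX library and no ES library (2.83% of starts), nor in every FS library and no ES library (2.04% of starts). No member was open in every FS library and no ES library of the lists as deposited either (5.35% of starts).

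Peaks away from promoters were next compared, since the enhancers of these genes lie outside their first exons. No file used here gives the positions of the known enhancers, so the regions below were not matched to them. A region of the alpha cluster 34.89 kb after the Pcdhac2 start, chr18:37178312-37178828, had a peak in 8 lists. These were FS1 replicate 3, EpiSC_AF replicates 2 and 3, EpiSC_AFX1 replicate 3, EpiSC_AFX2 replicates 1 and 2 and Rd2_EpiLC replicates 2.1 and 2.2. It ranked low there, at a median percentile of 19.2, and was in no equal-length list.

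The stretch between the alpha and beta clusters held a single region, chr18:37217164-37218477, 28.27 kb after the alpha end. It had a peak in 14 lists: 3 of 3 FS1, 0 of 3 FS2, 2 of 3 EpiSC_AF, 2 of 3 EpiSC_AFX1, 3 of 3 EpiSC_AFX2, 0 of 3 ES, 2 of 4 Rd2_EpiLC, 2 of 2 Rd2_AFX and 0 of 2 Rd2_ES libraries. The FS groups were thus opposite at this region, all libraries of FS1 with the peak and none of FS2, and the ES libraries lacked it too. The Pcdhac1 start and chr18:37835550-37836617 showed the same split of FS1 from FS2. The share of all regions with such a split was not computed, so it cannot be called particular to this region. The FS2 lists are also shorter, 11796 to 14147 peaks against 23883 to 31263 in FS1, and at equal list length the region was present in 1 FS1, 1 EpiSC_AF and 1 EpiSC_AFX1 library. Because it lies within 50 kb of both clusters, it was counted in both the alpha and the beta window.

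Most of the other recurrent regions lay at the 3′ end of the gamma cluster, downstream of its last first exon. The region chr18:37822166-37823002, 3.04 kb after the Pcdhgc5 start, had a peak in 21 lists, second in number to the Pcdhgc3 start. All 15 FS and EpiSC libraries of the first set held it, with ES replicate 1, 3 of 4 Rd2_EpiLC and both Rd2_AFX libraries. Of the equal-length lists, 7 held it: 3 FS1, 2 EpiSC_AF, 1 EpiSC_AFX1 and 1 ES. Chr18:37824887-37825134 and chr18:37826206-37826522, which follow it, had peaks in 8 and 7 lists, all of the first set and none of them ES or FS2.

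Near the end of the gamma constant exons, chr18:37835550-37836617 had a peak in 12 lists and chr18:37840778-37842718 in 15. Both were found in 6 of 6 EpiSC_AFX libraries, 3 of 3 FS1 libraries and 0 of 3 ES libraries. In FS2 the former was found in 0 of 3 and the latter in 2 of 3. At the latter, which spans the annotated end of the gamma genes, the peaks were broad, from 150 to 1503 bp with a median of 705.5 bp, against a median of 243 bp over the 245 peaks of the locus and 291 bp over all peaks of the series. Of the 19 locus peaks wider than 700 bp, 10 lay there and 5 at the former region. Of the equal-length lists none held the former and 1 the latter, FS2 replicate 1.

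Beyond the gamma cluster, 3 recurrent regions lay within Diaph1, a formin gene that adjoins it. The region chr18:37852070-37852508, 10.2 kb after the gamma end, had a peak in 20 lists, among them ES replicate 2, and in 9 equal-length lists. Chr18:37880117-37880474, 38.24 kb after the end, had one in 14 lists, with 6 of 6 EpiSC_AFX, 3 of 3 FS1, 1 of 3 FS2, 3 of 3 EpiSC_AF and 0 of 3 ES libraries. Chr18:37883470-37883779 had one in 8 lists and in none at equal length. Between beta and gamma, the upper end of Taf7, which encodes a subunit of the general factor TFIID, had a peak at chr18:37644048-37644379 in 15 lists: 6 of 6 FS, 5 of 6 EpiSC_AFX, 2 of 3 EpiSC_AF, 0 of 3 ES and 2 of 4 Rd2_EpiLC libraries. Cutting to equal length left it in 2 of 3 FS1 and 3 of 3 FS2 libraries, in 1 of 3 EpiSC_AF libraries and in 0 of 6 EpiSC_AFX and 0 of 3 ES libraries. The exact Fisher test of 5 of 6 FS against 0 of 6 EpiSC_AFX libraries gave p = 0.0152, with an adjusted p of 1 over all regions.

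**Figure D3:**
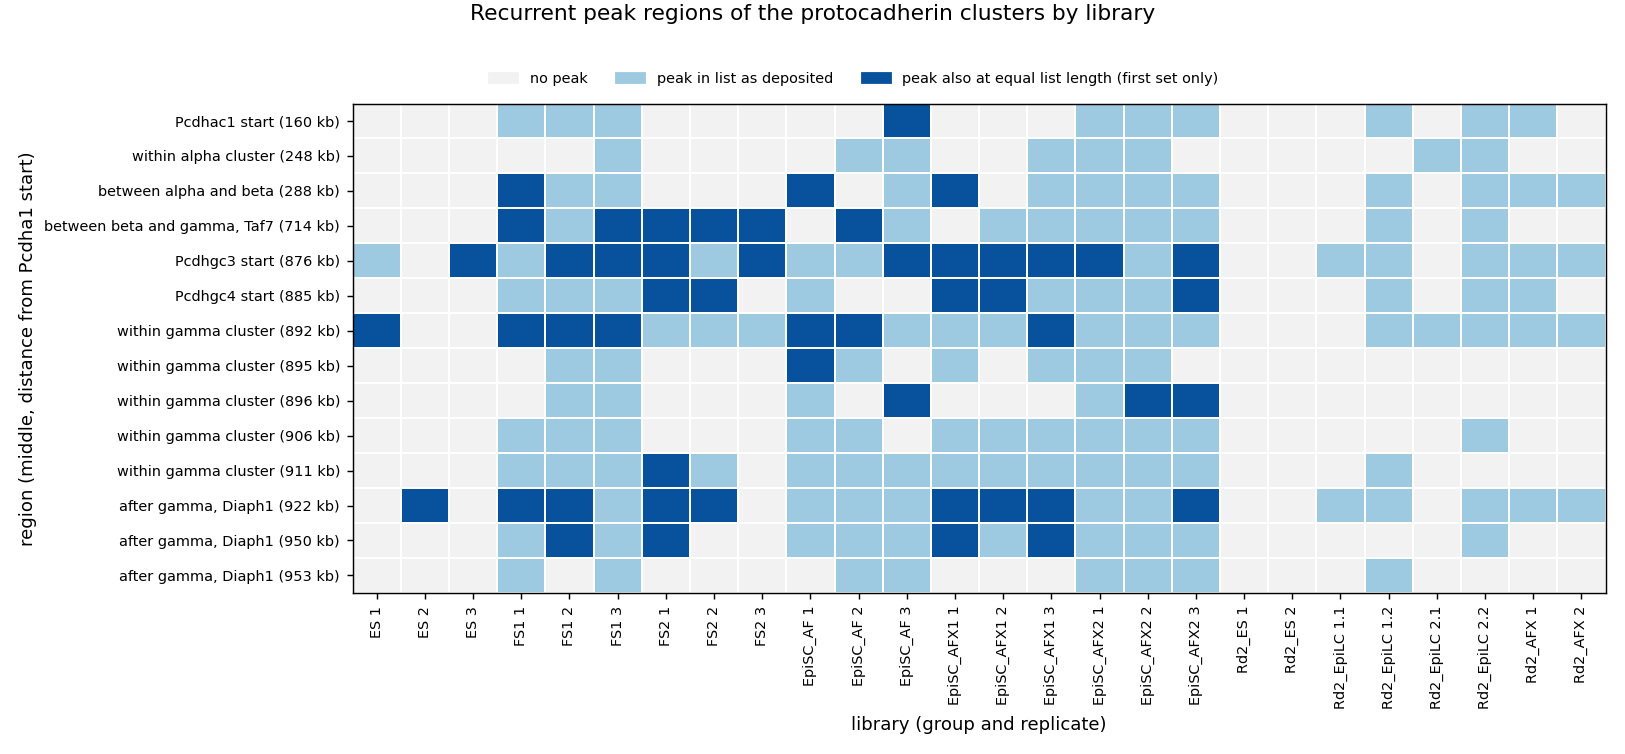
Presence of a peak in each of the 26 libraries (columns) at the 14 recurrent regions of the locus (rows, in order of position, with the distance of the middle from the Pcdha1 start in kb), with light cells for a peak in the list as deposited and dark cells for one that is also there at equal list length. The Pcdhgc3 start is filled in 22 columns and the region after Pcdhgc5 in 21, the ES columns hold a peak at 3 of the rows, and dark cells are scattered over the libraries of each cell type.

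Regions were then compared between cell types. For ES and EpiSC_AFX in the lists as deposited, 4 of 27 locus regions (14.8%) were found in every EpiSC_AFX and no ES library: the Pcdhgc4 start, both regions near the end of the gamma cluster and the Diaph1 region at 38.24 kb. Over the genome, 8.18% of 51601 regions showed this split. For ES and FS, 1 of 26 regions (3.85%) was found in every FS and no ES library, the Taf7 end, against 2.89% over the genome. No locus region separated FS from EpiSC_AFX in either direction, against 0.0252% of regions over the genome in FS alone and 0.0755% in EpiSC_AFX alone. At equal list length 0 locus regions were separated in any comparison, where over the genome 1.69% of regions were in every FS and no ES library and 2.12% the reverse, 2.59% in every EpiSC_AFX and no ES library and 2.72% the reverse, and 0.128% in every FS and no EpiSC_AFX library and 0.0533% the reverse. The exact Fisher test with Benjamini-Hochberg adjustment over all regions passed 0 locus regions and 0% of regions over the genome, and its lowest adjusted p in the locus was 0.137, for ES and EpiSC_AFX in the lists as deposited. The count at an unadjusted p under 0.05 was 6 of 27 for that comparison (14.3% of regions over the genome), 3 of 26 for ES and FS (7.39%) and 0 of 26 for FS and EpiSC_AFX (0.707%). With equal-length lists it was 1 of 12 for ES and FS (6.64%), 0 of 11 for ES and EpiSC_AFX (8.11%) and 1 of 9 for FS and EpiSC_AFX (0.831%), the Taf7 end both times.

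The last comparison took each cluster as a whole and asked whether its window held more peaks in 1 cell type than in another. At equal list length the gamma window held 2, 1 and 3 peaks in ES, 3, 4 and 3 in FS1, 6, 3 and 2 in FS2, 2, 2 and 2 in EpiSC_AF, 4, 3 and 4 in EpiSC_AFX1 and 1, 1 and 4 in EpiSC_AFX2. The ranges overlapped for every pair of cell types. ES had a mean of 2 ± 1 (SD, n = 3) against 3.5 ± 1.38 (SD, n = 6) in FS, a difference of −1.5 (two-sided exact permutation test over libraries, p = 0.25; adjusted p = 0.644 over all genome windows of that length). EpiSC_AFX had a mean of 2.83 ± 1.47 (SD, n = 6), a difference of −0.833 from ES (exact permutation p = 0.452, adjusted p = 0.754) and of 0.667 between FS and EpiSC_AFX (exact permutation p = 0.574, adjusted p = 1). None of these differences passed the test against the spread between libraries. Of genome windows of this length, every FS library stood above every ES library in 3.85%, every EpiSC_AFX library above every ES library in 4.67% and every FS library above every EpiSC_AFX library in 0.274%.

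In the lists as deposited the gamma window held 3, 1 and 3 peaks in ES, 10, 13 and 13 in FS1, 8, 6 and 3 in FS2, 9, 12 and 10 in EpiSC_AF, 9, 8 and 11 in EpiSC_AFX1 and 12, 13 and 10 in EpiSC_AFX2. Every EpiSC_AFX library stood above every ES library, with means of 10.5 ± 1.87 (SD, n = 6) and 2.33 ± 1.15 (SD, n = 3), a difference of −8.17 (exact permutation p = 0.0119, the smallest possible with 3 against 6; adjusted p = 0.0499). Of the 8557 genome windows of this length, 28.9% showed the same order and 2041 had an adjusted p under 0.05. The ES lists were the shortest of the first set. Per 10000 peaks of the list, the gamma window held 2.74, 1.24 and 3.09 in ES and 2.31 in FS2 replicate 3, and from 3.74 to 5.8 in the other 14 libraries of the first set. On this scale the mean difference of ES from EpiSC_AFX was −1.93, with every EpiSC_AFX library above every ES library (exact permutation p = 0.0119, adjusted p = 0.0558), which misses the threshold. The share of genome windows with this order per 10000 peaks was not computed, so the order cannot be called particular to the gamma window. FS had a mean of 8.83 ± 3.97 (SD, n = 6) peaks in the lists as deposited, and the difference of −6.5 from ES to FS had an exact permutation p of 0.0595 (adjusted p = 0.305), which misses the threshold. FS2 replicate 3 was level with ES replicates 1 and 3, whereas in 11.7% of genome windows every FS library stood above every ES library.

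The alpha window was nearly without peaks once lists were cut to equal length. It held 1 peak each in FS1 replicate 1, EpiSC_AF replicates 1 and 3 and EpiSC_AFX1 replicate 1, and 0 in every other library of the first set, all ES libraries included. ES and FS differed by −0.167, as did ES and EpiSC_AFX (exact permutation p = 1 for each). In the lists as deposited it held 0, 0 and 0 peaks in ES, 3, 2 and 4 in FS1, 1, 0 and 0 in FS2, 1, 1 and 3 in EpiSC_AF, 1, 0 and 2 in EpiSC_AFX1 and 4, 3 and 2 in EpiSC_AFX2. FS1, EpiSC_AF and EpiSC_AFX2 thus stood above all ES libraries, while FS2 and EpiSC_AFX1 each had libraries at 0. FS1 and EpiSC_AFX2 also had the longest lists on average, with means of 27198 and 27065 peaks against 9570 in ES. The mean was 20626 in EpiSC_AF, below the 22193 of EpiSC_AFX1. Of genome windows of this length, every FS library stood above every ES library in 13%, and every EpiSC_AFX library did in 32%. The shares for FS1, EpiSC_AF or EpiSC_AFX2 alone were not computed. ES against EpiSC_AFX, with 2 ± 1.41 (SD, n = 6), gave an exact permutation p of 0.0952 (adjusted p = 0.193), and ES against FS, with 1.67 ± 1.63 (SD, n = 6), gave 0.214 (adjusted p = 0.505).

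The beta window held few peaks, although its cluster has the most genes. In the lists as deposited it held 2, 0 and 0 peaks in ES, 2, 1 and 2 in FS1, 0 in each FS2 library, 1, 1 and 2 in EpiSC_AF, 1, 0 and 1 in EpiSC_AFX1 and 1, 2 and 1 in EpiSC_AFX2. At equal list length ES had a mean of 0.333 ± 0.577 (SD, n = 3) and FS and EpiSC_AFX each 0.167 ± 0.408 (SD, n = 6; exact permutation p = 1 for each comparison). The ES value rests on replicate 1 alone, and without that library the difference from either type was −0.167.

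**Figure D4:**
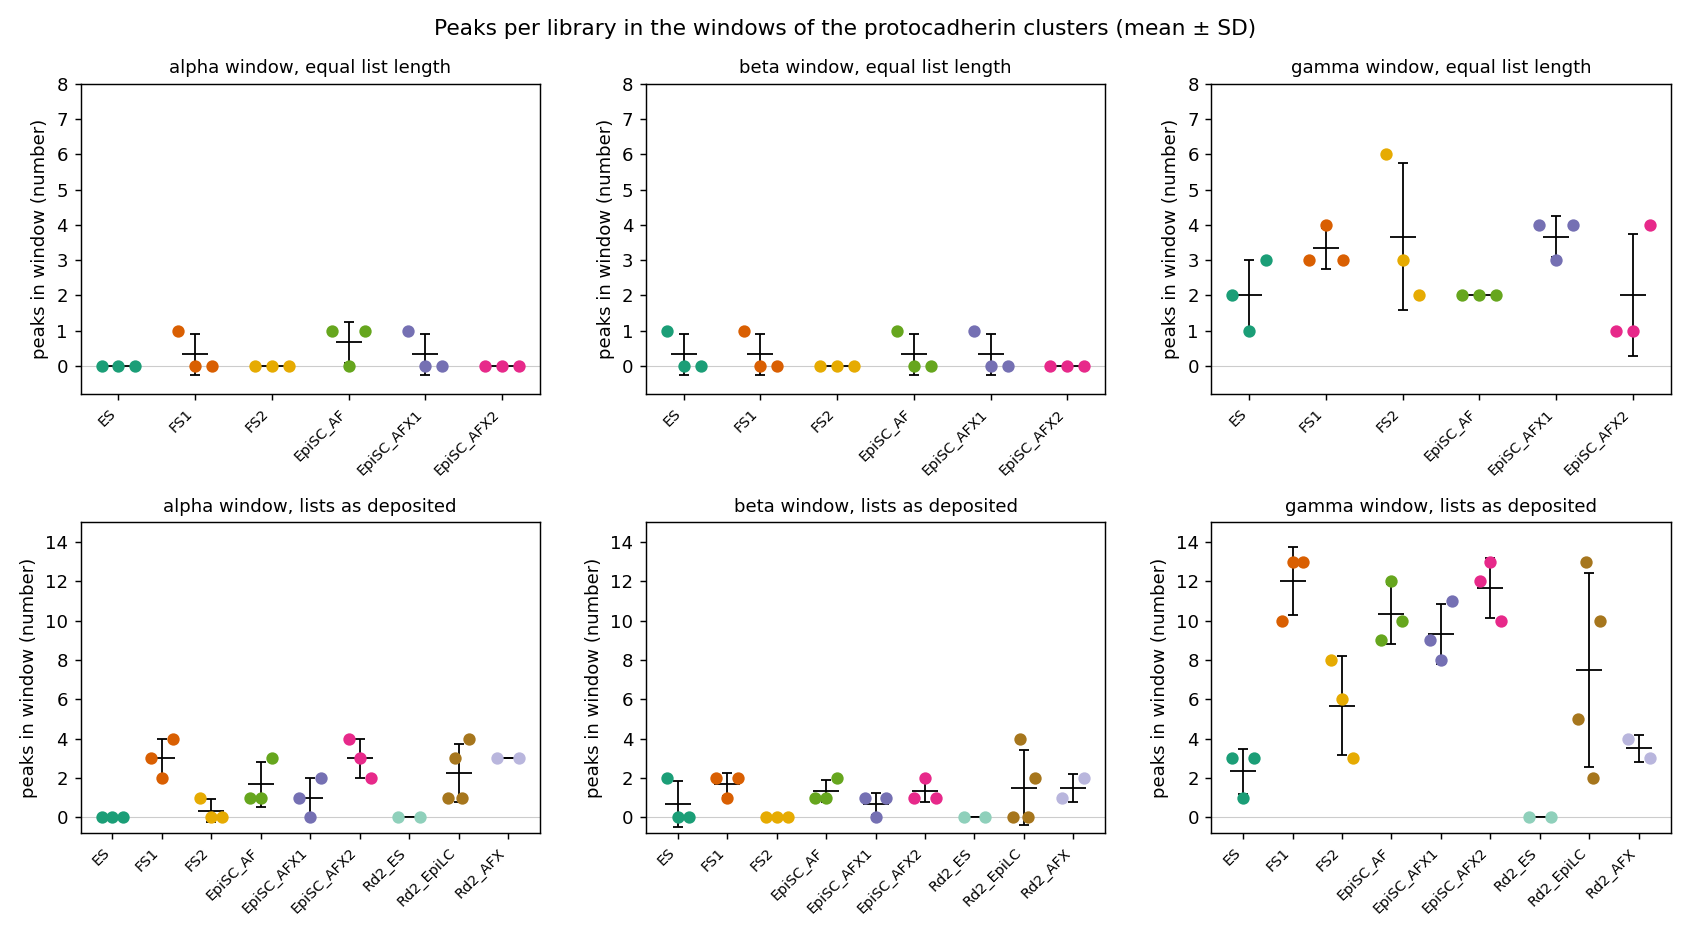
Number of peaks in the alpha, beta and gamma windows of each library (points) by group, with the group mean and SD as bars, at equal list length for the first set (top) and in the lists as deposited for both sets (bottom). In the lists as deposited the gamma window held 1 to 3 peaks in ES and 8 to 13 in EpiSC_AFX, and at equal list length 1 to 3 in ES and 1 to 4 in EpiSC_AFX.

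In the Rd2 set the gamma window held 0 and 0 peaks in Rd2_ES, 5, 13, 2 and 10 in Rd2_EpiLC and 4 and 3 in Rd2_AFX. The alpha window held 0 and 0, then 1, 3, 1 and 4, then 3 and 3, and the beta window 0 and 0, then 0, 4, 0 and 2, then 1 and 2. The libraries of Rd2_EpiLC with many peaks, replicates 1.2 and 2.2, were those with lists of 23608 and 26045 peaks, against 10563 and 7469 in the others. The Rd2_ES lists hold 471 and 2576 peaks, so a locus without a peak in them carries little weight. No test was made, since an exact permutation of 4 against 2 libraries cannot go below p = 0.0667.

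The nonclustered protocadherins, single genes elsewhere in the genome with their own full set of exons, served for comparison, with a peak within 1 kb of either gene end. Of 12 listed, 10 had one in at least 1 list, and Pcdh9 and Pcdh12 had none. Pcdh17 had one in 24 lists and in 18 of 18 lists at equal length, Pcdh10 in 20, Pcdh8 in 17 and Pcdh1 in 16. Libraries of ES had a mean of 2.33 ± 1.53 such genes (SD, n = 3), against 8 ± 1 (SD, n = 3) in FS1, 3 in each FS2 library, 8.33 ± 0.577 (SD, n = 3) in EpiSC_AF, 8.33 ± 1.15 (SD, n = 3) in EpiSC_AFX1 and 9.67 ± 0.577 (SD, n = 3) in EpiSC_AFX2. FS2 again lay near ES and apart from FS1. Over all genes, the median share with a peak at either end was likewise lower in ES (23.8%) and FS2 (35.9%) than in FS1 (51.9%). It was 48.9% to 52.2% in the EpiSC groups, so the order of the groups is not particular to these genes. At equal length the means were 2.33 ± 1.53 in ES and 2.67 ± 0.577 in FS2, and between 3.33 and 5 in the other groups (SD, n = 3). No share over all genes is given beside these equal-length means.

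Among 22 genes for regulators of the clusters, 17 had a peak at either end in at least 1 list. Ctcf, which encodes the insulator protein that binds protocadherin promoters and enhancers, had one in 19 lists, and the cohesin gene Smc3, the silencing gene Smchd1 and Tet2, for a methylcytosine oxidase, had one in 24 each. Dnmt3b, for a de novo DNA methyltransferase, had one in 18 lists and in 0 of 3 ES libraries. Lrif1, Wiz, Smc1a, Tet1, Tet3, Setdb1 and Wapl likewise had one in other lists but in no ES library, so this is not particular to Dnmt3b. Rad21, Stag1, Nipbl, Dnmt1 and Dnmt3a had none in any list, although the ends of the gene models used need not be the starts that the cells use. Libraries of ES had a mean of 7 ± 1 such genes (SD, n = 3), against 15.7 ± 0.577 (SD, n = 3) in FS1, 8.33 ± 3.21 (SD, n = 3) in FS2, 14 ± 1 (SD, n = 3) in EpiSC_AF, 14.3 ± 1.53 (SD, n = 3) in EpiSC_AFX1 and 15.7 ± 0.577 (SD, n = 3) in EpiSC_AFX2. Equal-length lists gave means of 6.67 in ES, 6 in FS1, 3.33 in FS2, 7.67 in EpiSC_AF, 6.67 in EpiSC_AFX1 and 8 in EpiSC_AFX2, FS2 being the lowest. In the lists as deposited, the median share over all genes was also lower in ES (23.8%) and FS2 (35.9%) than in FS1 (51.9%). No such share for gene ends is given at equal length. The mean share of other protein-coding starts there was 21.8% in ES, 23.6% in FS2 and 26.2% to 26.7% in the other groups, so ES was the lowest by that measure. The regulator values are counts of genes with an open end, and no expression was measured.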

How the data were processed

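Each of the 26 ATAC-seq libraries began with 50000 cells per the labels' protocols, and the deposited data were 1 broadPeak list per library, 451563 peaks in all, so the authors called peaks per sample. Trim Galore, Bowtie, Picard, MACS2 and the build mm10 are named in the submitters' processing notes, without their roles or versions. Each deposited peak carries a score (not used), a fold enrichment (a ratio), a −log10 p and a −log10 q of the authors, used only to rank or filter peaks within a list. The shortest peak was 150 bp in the first set and 110 bp in the Rd2 set, and no test joined the sets.

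Gene positions came from the RefSeq table for GRCm38.p6. It gives no strand, and member starts were taken as the lower coordinate, since alpha genes and gamma genes share their upper ends. The background of the start test was the other protein-coding starts of a RefSeq promoter table that does not cover chromosome 18, not all genes as planned. For neighbours, marker genes and the other gene lists either gene end was used. Regions were merged peaks, and 1 bp of overlap counted as presence. Peak numbers were compared by two-sided exact permutation over libraries (84 assignments for 3 against 6, smallest p 0.0119; 924 for 6 against 6, smallest p 0.00216), adjusted by Benjamini-Hochberg over all genome windows of the same length with a peak. Starts and regions were compared by two-sided exact Fisher tests adjusted over all starts or regions with a peak, with a threshold of 0.05. FS joined FS1 with FS2, and EpiSC_AFX joined EpiSC_AFX1 with EpiSC_AFX2. EpiSC_AF and the Rd2 set were described only. Libraries of a group shared at most 0.0746% of peaks with identical coordinates, so none was a copy. The members, lists and tests were chosen with earlier results of these data known. Members named were all those with a start peak in any list. Regions were named that all libraries of a first-set group held, or at least 2 of 3 libraries in each of at least 2 such groups. Read depth is unknown, so no counting interval is given. Scripts were tested on simulated data and ran in Python 3.11.15 with numpy 2.4.6, pandas 2.3.3, scipy 1.17.1 and matplotlib 3.10.9.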

Additional observations from a re-analysis of the deposited data

Results flagged for a closer look

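At equal list length, 1 library of a cell type stood apart from the other 5 in 4 of the 20 groups of values examined. The rule used flags about 1 in 20 groups by chance for continuous values, but a single 1 among values of 0 always meets it. FS1 replicate 1 held 1 peak in the alpha window and 1 in the beta window, and the other 5 FS libraries held 0 in each. EpiSC_AFX1 replicate 1 held 1 peak in the alpha window and 1 in the beta window, and the other 5 EpiSC_AFX libraries held 0 in each. All 4 values come from the single region between the alpha and beta clusters, which lies in both windows, so they amount to 1 peak in each of these libraries.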

How the results depend on the processing

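Peak lists carry no depth, and list length moved more values than any other choice. With the lists as deposited, the gamma difference of ES from EpiSC_AFX moved from −0.833 to −8.17 and passed the threshold (exact permutation, adjusted p = 0.0499, and 0.0499 to 1 over the alternatives). Of the 8557 windows of this length tested, 2041 passed it, so the call is not particular to the gamma window. In the same lists the beta difference of ES turned to −0.167 from FS and −0.333 from EpiSC_AFX. The gamma difference of FS from EpiSC_AFX turned to −1.67. Keeping only peaks whose −log10 q reached 5, the beta difference of ES from FS was −0.333 and the gamma difference of FS from EpiSC_AFX −1. Without flanks the latter was −0.167. In both the deposited and the −log10 q settings, 1 member start (Pcdhgc4 with the lists as deposited) was open in every EpiSC_AFX and no ES library, against 0. Leaving out each library in turn gave beta differences from −0.167 (without ES replicate 1) to 0.333 for ES and either type, and gamma differences from −2 to −1 for ES and FS, −1.33 to −0.333 for ES and EpiSC_AFX and 0.167 to 0.967 for FS and EpiSC_AFX. Of the other values of main comparisons, 88 under alternative settings and 122 with a library left out kept their direction or stayed at 0. Those at 0, among them counts of separated member starts, have no direction. A further 20 and 26 went to or from 0, all in the alpha and beta windows. None of these other values crossed the threshold. The cause of the changes was not tested.

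Replicate numbers did not pair the samples: correlations of same-numbered libraries lay between −0.0245 and 0.0152, and 5 of 18 libraries correlated best with their own number. With the replicate number as a block the gamma differences stayed at −1.5 for ES and FS (exact permutation p = 0.333), −0.833 for ES and EpiSC_AFX (p = 0.407) and 0.667 for FS and EpiSC_AFX (p = 0.602), and the block changed no call.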
